A study of Mus musculus with 8 samples.

Results

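The genes examined were 8 that encode subunits of AMP-activated protein kinase (AMPK) and its main upstream kinases. They were taken by symbol from the table of raw counts: *Prkaa1* and *Prkaa2* (catalytic subunits α1 and α2), *Prkab1* and *Prkab2* (scaffold subunits β1 and β2), *Prkag1* and *Prkag2* (nucleotide-binding subunits γ1 and γ2), *Stk11* (the kinase LKB1) and *Camkk2* (the kinase CaMKK2). All 8 were among the 16540 genes of the table, and all 8 passed the filter on low counts that left 12307 genes. Liver RNA came from male mice that lacked functional *Apoe* by their labels (Apoe-/-) and ate a Western diet, which the study's methods describe as a high cholesterol diet begun before dosing. One group of 4 mice received the vehicle, and the other group of 4 mice received ISOGK at 20 mg/kg/day for 8 weeks by intraperitoneal injection, with 1 library per mouse. ISOGK is isoginkgetin, a biflavonoid of *Ginkgo biloba* that the study gave as an inhibitor of ATP citrate lyase. The age of the mice was not given in the sources used here, and loss of *Apoe* from every cell of the body, vehicle group included, is the background of every comparison.

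AMPK is a trimer of 1 α, 1 β and 1 γ subunit that senses the energy state of the cell. AMP and ADP bind the γ subunit when ATP runs low, and the kinase is switched on by phosphorylation of the α subunit, in liver chiefly by LKB1 and, when calcium rises, by CaMKK2. Active AMPK phosphorylates acetyl-CoA carboxylase, and so slows the synthesis of fatty acids. The counts measure mRNA, and neither the phosphorylation nor the activity of the kinase can be read from them.

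None of the 8 genes was called under ISOGK by the test applied across all genes. At an adjusted p under 0.05 in edgeR's quasi-likelihood test, 0 of 8 were higher and 0 of 8 were lower, where 4.11% of all tested genes were higher, 3.44% were lower and 7.55% were called in either direction. With only 8 genes, 0 calls do not set the members apart from these shares. Adding an absolute log2 fold change over 1 left 1.63% of all genes and 0 of 8 members. At an unadjusted p under 0.05 there was 1 of 8 members, *Prkab1*, against 24.2% of all genes. DESeq2 and limma-voom also called 0 of 8 at an adjusted p under 0.05, and each had *Prkab1* alone at an unadjusted p under 0.05. Of the log2 fold changes (ISOGK over vehicle), 6 were negative and 2 were positive, with a median of -0.08 against 0.00 over all tested genes. The median absolute log2 fold change was 0.16 for the members and 0.19 for all tested genes.

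Libraries held between 19605286 and 24461854 counts in the vehicle group and between 17457106 and 21626399 in the ISOGK group. Members had from 25 counts (*Prkab2* in vehicle-treated mouse 1) to 1583 counts (*Stk11* in vehicle-treated mouse 3) per library. *Apoe* had between 3252 and 6489 counts. No mouse with functional *Apoe* was sequenced, so whether the knockout lowered these counts cannot be read here. The genotype was taken from the labels. *Acly*, the gene of ATP citrate lyase, fell from 119 ± 10.4 to 79.0 ± 8.4 CPM (counts scaled to the effective library size; mean ± SD of 4 mice each), with edgeR giving -0.60 on the log2 scale (standard error 0.10) at an adjusted p of 0.00591. Vehicle-treated mouse 4 stood apart in 10 skeletal muscle markers, which were all highest there and summed there to 1597 counts, while no other library passed 13. Hepatocyte markers overlapped between the groups, with a summed level of 136057 to 147902 CPM under vehicle and 122992 to 161137 CPM under ISOGK. In bulk tissue, fewer cells of a type and less RNA per cell cannot be told apart.

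**Figure D1:**
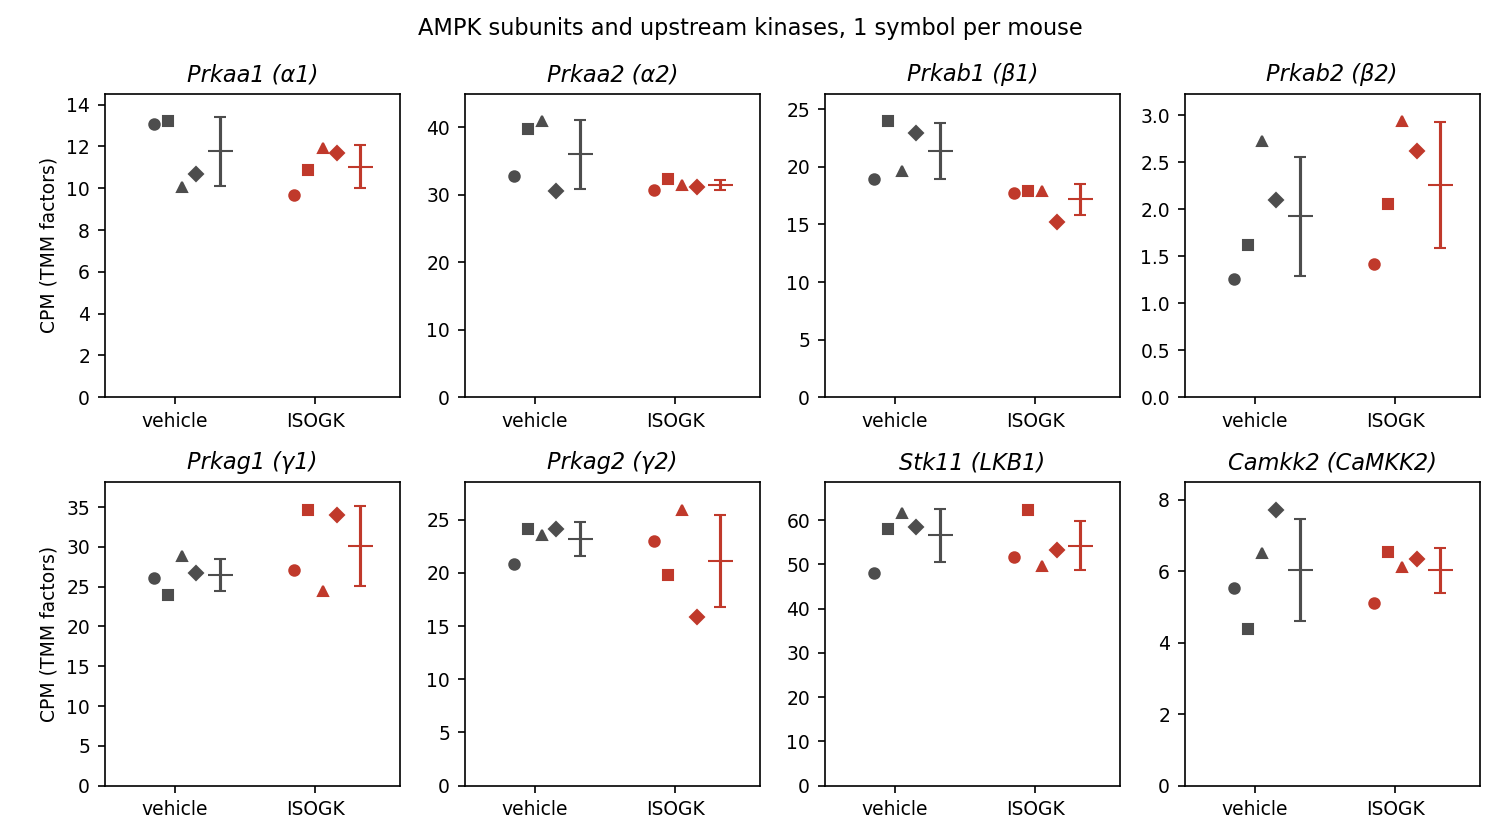
CPM of the 8 members in each mouse (y axis, from 0; counts scaled to library size with TMM factors), with vehicle in grey, ISOGK in red, 1 symbol shape per replicate number and bars for the mean ± SD of 4 mice. *Prkab1* is the only panel in which the 4 ISOGK-treated mice, between 15.2 and 17.9 CPM, all lie below the 4 vehicle-treated mice.

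The catalytic subunits were both expressed, and neither differed between groups beyond the spread of the mice. *Prkaa2* (chromosome 4, 105029874 to 105109890 in GRCm38, minus strand), the α2 catalytic subunit, had 32.8, 39.7, 40.9 and 30.6 CPM in vehicle-treated mice 1 to 4. The ISOGK-treated mice had 30.7, 32.4, 31.5 and 31.2 CPM. Vehicle-treated mice 2 and 3 were high and the other mice of that group lay in or next to the ISOGK range, so the groups overlapped and the ISOGK-treated mice differed far less among themselves (SD of log2 CPM 0.03) than the vehicle-treated mice did (0.21). The log2 fold change of *Prkaa2* was -0.20 (standard error 0.11, 95% interval -0.43 to 0.03, edgeR adjusted p = 0.280). Vehicle-treated mouse 4, the library with muscle transcripts, had the lowest *Prkaa2* level of its group. Without it the log2 fold change was -0.27 (edgeR adjusted p = 0.164), and the part of muscle RNA in the level was not tested further.

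*Prkaa1* (chromosome 15, 5143861 to 5181899, plus strand), the α1 catalytic subunit, had 13.1, 13.2, 10.05 and 10.7 CPM under vehicle and 9.66, 10.9, 11.9 and 11.7 CPM under ISOGK. Vehicle-treated mice 1 and 2 were above all ISOGK-treated mice, and vehicle-treated mice 3 and 4 lay inside the ISOGK range. Its log2 fold change was -0.09 (standard error 0.13, 95% interval -0.37 to 0.19, edgeR adjusted p = 0.716). The ratio of *Prkaa2* to *Prkaa1* counts was 3.11 ± 0.68 under vehicle and 2.86 ± 0.26 under ISOGK (SD, n = 4 each), with overlapping groups.

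The scaffold subunits held the largest differences in both directions among the 8 genes. *Prkab1* (chromosome 5, 116013586 to 116024508, minus strand), the β1 subunit that bridges α and γ and binds glycogen, had 19.0, 24.0, 19.7 and 23.0 CPM in vehicle-treated mice. In ISOGK-treated mice it had 17.7, 17.9, 17.9 and 15.2 CPM. Every ISOGK-treated mouse was below every vehicle-treated mouse, although the gap between the groups was 17.9 to 19.0 CPM and ISOGK-treated mouse 4 was low within its own group. It was 1 of the 7.36% of all tested genes whose ISOGK-treated mice all lay below the vehicle-treated mice. The log2 fold change was -0.32 (standard error 0.11), which is a ratio of 0.803 with a 95% interval of 0.680 to 0.948. A two-sided exact permutation test on log2 CPM gave p = 0.0286, the smallest that 4 mice against 4 allow. Any gene whose groups separate fully has this value, so it adds nothing to the separation. After adjustment over all genes the p was 0.104 in edgeR, 0.0826 in DESeq2 and 0.111 in limma-voom, so the difference did not pass. Scaling by library size alone, without TMM factors, moved the median log2 fold change of all genes to -0.13 and that of *Prkab1* to -0.44 (edgeR adjusted p = 0.0472), the only setting of the 16 tried in which a member was called. The log2 fold change was -0.26 without ISOGK-treated mouse 4 (edgeR adjusted p = 0.206), and without vehicle-treated mouse 2 it was also -0.26 (edgeR adjusted p = 0.270).

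*Prkab2* (chromosome 3, 97658193 to 97673812, plus strand), the β2 subunit known from skeletal muscle, was the least abundant member, with 25 to 70 counts per library. It had 1.25, 1.62, 2.73 and 2.10 CPM under vehicle and 1.42, 2.06, 2.94 and 2.62 CPM under ISOGK. In each group mouse 1 was lowest and mouse 3 highest, and the groups overlapped over most of their range. The log2 fold change was 0.22 (standard error 0.29), and its 95% interval from -0.41 to 0.85 was the widest of the 8. The library with muscle transcripts was not the highest for *Prkab2* in its group, and without it the log2 fold change was 0.26 (edgeR adjusted p = 0.687). The ratio of *Prkab2* to *Prkab1* counts was 0.0910 ± 0.0338 under vehicle and 0.133 ± 0.0434 under ISOGK, a log2 difference of 0.55 with SDs of 0.50 and 0.51 and overlapping groups.

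The start regions of the 2 scaffold genes are shown because this pair had the widest gap in level between paralogs and the only member whose groups separated. Each runs 5′ to 3′ along the gene's own strand in RefSeq on GRCm38.p6, from 250 bases before the annotated start to 50 bases after it, and capitals mark CG dinucleotides. *Prkab1* lies at chr5:116024379-116024678 (minus strand) and *Prkab2* at chr3:97657962-97658261 (plus strand).
Prkab1: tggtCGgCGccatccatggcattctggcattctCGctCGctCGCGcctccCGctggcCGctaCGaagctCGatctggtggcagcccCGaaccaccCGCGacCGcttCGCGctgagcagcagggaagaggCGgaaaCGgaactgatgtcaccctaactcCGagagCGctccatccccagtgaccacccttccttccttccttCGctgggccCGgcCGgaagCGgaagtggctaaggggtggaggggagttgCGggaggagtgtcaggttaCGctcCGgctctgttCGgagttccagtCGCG
Prkab2: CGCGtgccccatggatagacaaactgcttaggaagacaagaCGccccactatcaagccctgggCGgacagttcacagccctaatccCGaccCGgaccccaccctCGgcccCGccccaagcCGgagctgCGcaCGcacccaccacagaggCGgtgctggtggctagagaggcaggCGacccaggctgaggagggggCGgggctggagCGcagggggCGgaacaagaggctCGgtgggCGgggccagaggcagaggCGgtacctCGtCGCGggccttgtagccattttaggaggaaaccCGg
The *Prkab1* window held 30 CG dinucleotides at a GC content of 65.3%, and the *Prkab2* window held 23 at 68.0%. The letters GGGCGG, searched on both strands, were present in the *Prkab2* window and not in the *Prkab1* window.

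Similar windows were read for all 8 members, which gave 10 promoters because *Prkag2* has 3 annotated starts. Their median GC content was 68.8% and their median number of CG dinucleotides was 31.5, against 52.7% and 7 over all 32851 promoters of the same length. The *Prkaa1* window was the richest, with 52 CG dinucleotides at 82.0% GC. At the other end, 1 of the starts of *Prkag2* had 6 at 50.3% GC. GGGCGG was found in 8 of 10 member windows (80.0%) and in 35.7% of all promoters, and CCAAT in 5 of 10 (50%) and in 37.4%. TATAAA was found in 0 of 10 and in 13.6% of all promoters, and CACGTG in 0 of 10 and in 7.15%. All were searched on both strands, and a match describes letters in a window, not binding.

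The γ subunits differed from the vehicle range in opposite directions in 2 of the ISOGK-treated mice. *Prkag1* (chromosome 15, 98812797 to 98831521, minus strand), the γ1 subunit, had 26.1, 24.0, 28.9 and 26.7 CPM in vehicle-treated mice and 27.1, 34.7, 24.5 and 34.0 CPM in ISOGK-treated mice. ISOGK-treated mice 2 and 4 were above every vehicle-treated mouse, and ISOGK-treated mice 1 and 3 lay inside the vehicle range. The log2 fold change was 0.19 (standard error 0.12, 95% interval -0.08 to 0.45, edgeR adjusted p = 0.383).

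*Prkag2* (chromosome 5, 24862744 to 25100642, minus strand), the γ2 subunit, had 20.9, 24.2, 23.5 and 24.2 CPM under vehicle and 23.0, 19.8, 26.0 and 15.9 CPM under ISOGK. Here ISOGK-treated mice 2 and 4 were below every vehicle-treated mouse and ISOGK-treated mouse 3 was above every one of them. Its log2 fold change was -0.13 (standard error 0.14, 95% interval -0.43 to 0.17, edgeR adjusted p = 0.600). Without ISOGK-treated mouse 4 it was -0.02 (edgeR adjusted p = 0.950). The ratio of *Prkag2* to *Prkag1* counts was between 0.80 and 1.01 under vehicle. Under ISOGK it was 0.848, 0.571, 1.06 and 0.468 in mice 1 to 4, so the SD of the log2 ratio was 0.54 there against 0.15 under vehicle. *Prkag2* has 10 annotated transcripts, which the count per gene pools. The third γ gene, *Prkag3*, known from fast skeletal muscle, is no member and was too low to test. It had 3 counts in vehicle-treated mouse 4 and at most 1 count in any other library.

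**Figure D2:**
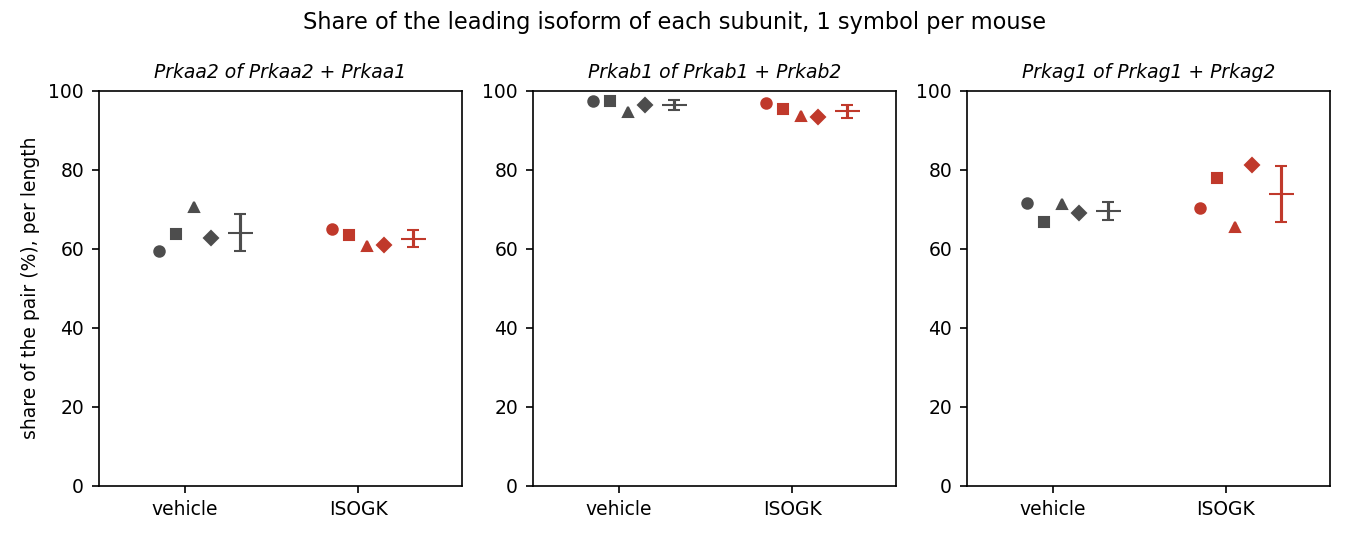
Share of the more abundant paralog in each subunit pair (y axis, percent of the summed CPM per kb of the longest coding transcript), 1 symbol per mouse with the mean ± SD of 4 mice beside it. The *Prkag1* share ran from 65.5% to 81.2% in the ISOGK group and from 66.7% to 71.6% in the vehicle group, and the groups overlap in all 3 panels.

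Per length of the longest coding transcript, the share of each paralog overlapped between the groups. *Prkaa2* made up 64.0% ± 4.6 of the α pair under vehicle and 62.5% ± 2.1 under ISOGK (SD, n = 4 each). *Prkab1* made up 96.4% ± 1.3 and 94.8% ± 1.6 of the β pair. *Prkag1* made up 69.6% ± 2.3 and 73.8% ± 7.1 of the γ pair. These shares describe mRNA and not the subunits present in assembled trimers, and they depend on the length used. With the union of all exons as the length, the vehicle mean ratio of *Prkag1* to *Prkag2* was 3.41 against 2.31. That of *Prkab1* to *Prkab2* was 20.0 against 28.8, and that of *Prkaa2* to *Prkaa1* was 1.82 on either length.

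The upstream kinases had the log2 fold changes nearest to 0. *Stk11* (chromosome 10, 80115803 to 80130682, plus strand), which encodes LKB1, had 48.0, 58.0, 61.6 and 58.6 CPM under vehicle and 51.7, 62.4, 49.7 and 53.2 CPM under ISOGK. The lowest level was in vehicle-treated mouse 1 and the highest in ISOGK-treated mouse 2, and the groups overlapped over nearly their whole range. The log2 fold change was -0.06 (standard error 0.11, 95% interval -0.29 to 0.17, edgeR adjusted p = 0.780). *Camkk2* (chromosome 5, 122731170 to 122779409, minus strand), the calcium-dependent kinase, had 5.52, 4.39, 6.50 and 7.73 CPM under vehicle and 5.10, 6.54, 6.11 and 6.34 CPM under ISOGK. Vehicle-treated mice 2 and 4 were the lowest and the highest of all 8, with the ISOGK-treated mice between them. Its log2 fold change was -0.0031 (standard error 0.18, 95% interval -0.39 to 0.38, edgeR adjusted p = 0.993), and its sign turned in 5 of the 16 alternative settings.

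**Figure D3:**
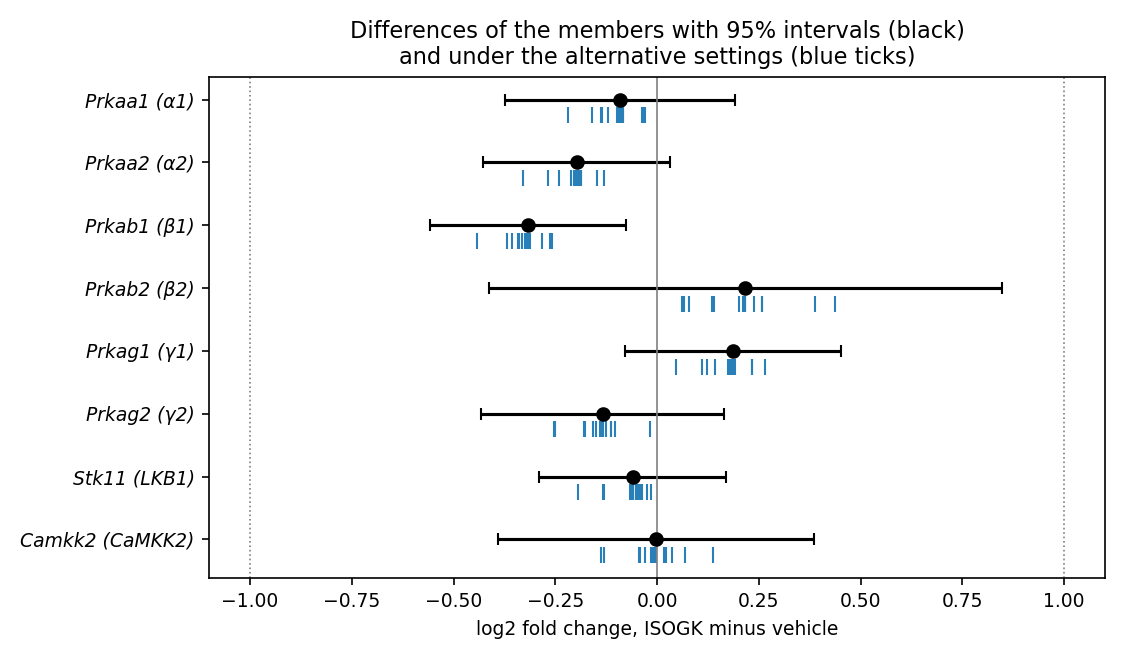
Log2 fold change (x axis, ISOGK minus vehicle) of the 8 members, with points and 95% intervals from edgeR in black and the values under 16 alternative settings as blue ticks; dotted lines mark a log2 fold change of 1 in either direction. All intervals lie between -0.56 and 0.85, and that of *Prkab1* alone does not include 0.

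The intervals above come from the main edgeR fit, were set for each gene singly, and are not given for the alternative settings. In the main fit, a change past 1 on the log2 scale lies outside the interval of each of the 8 members. The outermost limits there were -0.56 for *Prkab1* and 0.85 for *Prkab2*. The log2 fold change of *Prkab2* ran from 0.06 to 0.44 over the 16 alternative settings. It was 0.44 (standard error 0.30) without vehicle-treated mouse 3, so the limit of 0.85 does not hold for every setting. An adjusted p that misses the threshold does not show that the levels were equal. Over the 16 alternative settings the adjusted p lay between 0.288 and 0.942 for *Prkaa1*, between 0.103 and 0.556 for *Prkaa2*, between 0.0472 and 0.27 for *Prkab1* and between 0.43 and 0.926 for *Prkab2*. It lay between 0.147 and 0.825 for *Prkag1*, between 0.246 and 0.95 for *Prkag2*, between 0.303 and 0.958 for *Stk11* and between 0.66 and 0.993 for *Camkk2*.

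Levels of different genes were compared per kb of the longest coding transcript. In the vehicle group *Stk11* was highest at 22.0 ± 2.3 CPM per kb (SD, n = 4), followed by *Prkag1* at 16.0 ± 1.2 and *Prkab1* at 10.2 ± 1.2. *Prkag2* followed at 6.96 ± 0.47 CPM per kb, *Prkaa2* at 4.52 ± 0.64 and *Prkaa1* at 2.53 ± 0.35. The lowest levels per kb were those of *Camkk2* at 1.24 ± 0.29 and *Prkab2* at 0.385 ± 0.127. The ranges of the 4 vehicle-treated mice did not overlap between any neighbours in this order, and the order of the means was the same under ISOGK. With the union of all exons as the length, *Stk11* and *Prkag1* were close together at 12.3 and 12.1 CPM per kb with overlapping ranges, and *Prkaa2* moved ahead of *Prkag2*. On either length, the mean levels per kb of *Prkag1* and *Prkab1* were above those of both α genes.

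**Figure D4:**
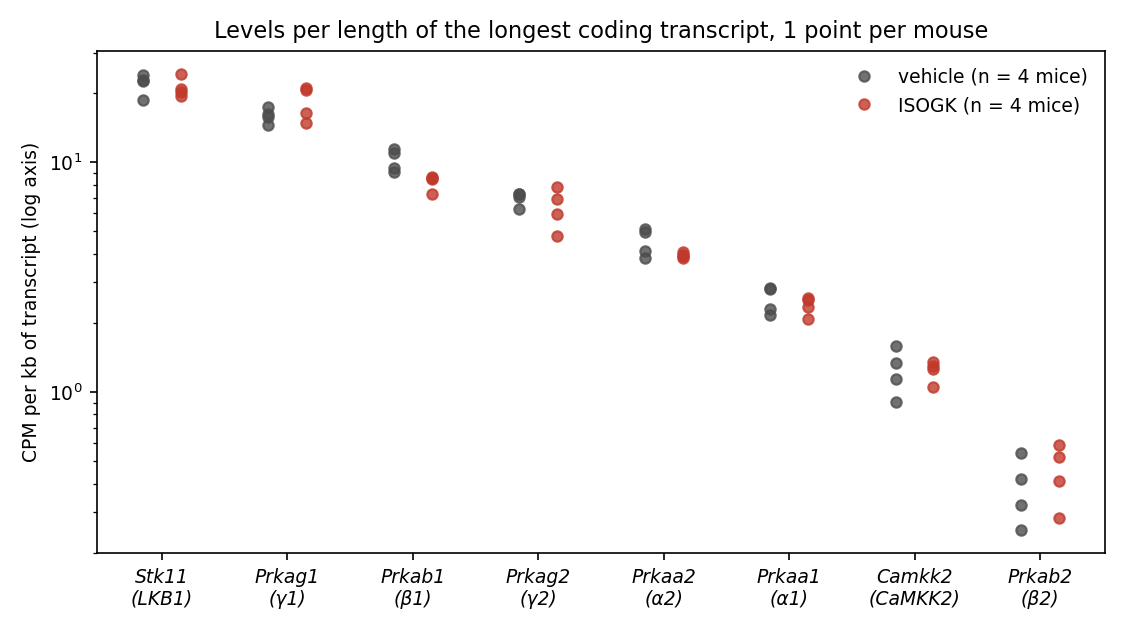
CPM per kb of the longest coding transcript (y axis, log scale) for the 8 members in the order of the vehicle mean, with 1 point per mouse, vehicle in grey and ISOGK in red. Levels run from a mean of 22.0 for *Stk11* to 0.385 for *Prkab2* in the vehicle group, with the same order in the ISOGK group.

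Of the members, 6 overlap annotated genes on the other strand in GENCODE M21, and the use of strand in the authors' counting is not given in the sources used here. The partners are *Gm15938* for *Prkaa1*, *Gm14508* for *Prkab1*, *Gm17651* for *Prkab2*, *B130046B21Rik* for *Prkag1*, *Cbarp* for *Stk11*, and *1500035N22Rik*, *Prkag2os1* and *Prkag2os2* for *Prkag2*. Without strand, reads of a gene and of its partner in shared exons cannot be told apart. *Prkaa2* and *Camkk2* have no overlapping gene there.

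The lists of other AMPK regulators held 4 to 11 tested genes each, and no call was made in them, where 7.55% of all tested genes were called and 24.2% had an unadjusted p under 0.05. Of the partners of LKB1 and other upstream activators (STRAD and MO25 proteins, sestrins, TAK1 and others), 0 of 11 tested were called by edgeR at an adjusted p under 0.05 and 0 of 11 at an unadjusted p under 0.05, with a median log2 fold change of -0.01. The smallest adjusted p values of that list belonged to *Sesn1*, a sestrin, and *Cab39*, which encodes the LKB1 partner MO25α, with log2 fold changes of -0.29 (edgeR adjusted p = 0.284) and -0.14 (0.439). Among 4 tested genes that oppose AMPK, 0 were called, 2 had an unadjusted p under 0.05, and the median was -0.23. Those 2 were *Flcn*, the gene of folliculin, at -0.43 (standard error 0.16, edgeR adjusted p = 0.120) and its partner *Fnip1* at -0.36 (standard error 0.15, edgeR adjusted p = 0.15). *Flcn* passed when library size alone was the scale (-0.57, adjusted p = 0.0436) and when ISOGK-treated mouse 4 was left out (-0.57, adjusted p = 0.0463), its adjusted p lying between 0.0436 and 0.284 over the 16 settings. Of 10 tested kinases that LKB1 activates besides AMPK, 0 were called, 1 (*Sik2*, 0.27, edgeR adjusted p = 0.185) had an unadjusted p under 0.05, and the median was 0.07.

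**Figure D5:**
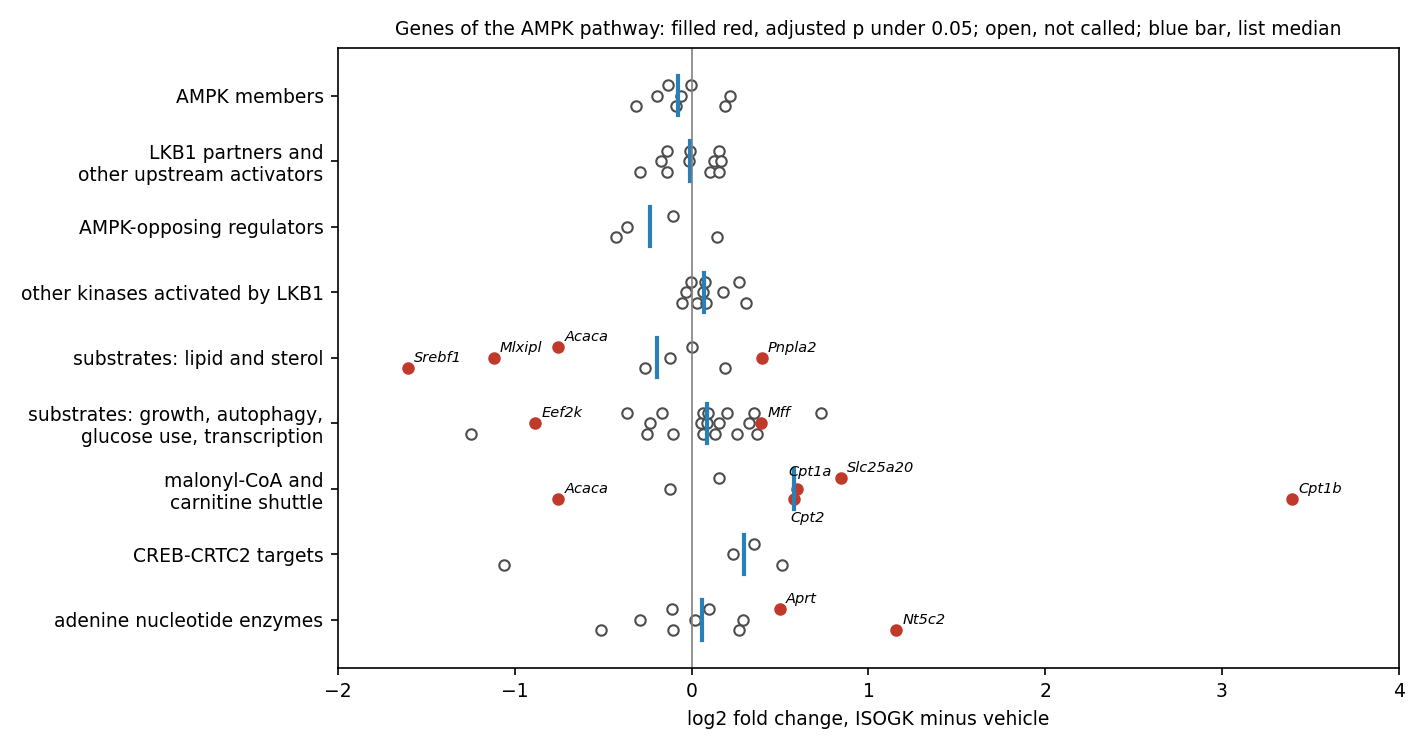
Log2 fold change (x axis, ISOGK minus vehicle) of the tested genes of 9 lists (y axis), with genes at an edgeR adjusted p under 0.05 filled and named, other genes open, and the list median as a blue bar. No filled point appears among the members, the activators, the opposing regulators, the other kinases activated by LKB1 or the CREB-CRTC2 targets, and the filled points lie in the lists of substrates, carnitine shuttle genes and adenine nucleotide enzymes.

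Calls were found among the AMPK substrates, the carnitine shuttle genes and the adenine nucleotide enzymes. Over the 8 pathway lists together, those of upstream and opposing regulators included, 12 of 72 tested genes (16.7%) were called, 8 higher and 4 lower, against 7.55% of all genes. The lists were chosen with earlier results of these data known, so the 2 shares are a description and carry no test. A call describes the mRNA, not phosphorylation by AMPK. Without vehicle-treated mouse 2, 7 of 73 list genes (9.59%) and 3.05% of all genes were called, and without vehicle-treated mouse 3, 7 of 73 (9.59%) and 3.99% of all genes. With at least 10 counts required in every library, *Cpt1b* dropped out. There 11 of 71 list genes (15.5%) and 7.89% of all genes were called.

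Of 8 AMPK substrates in lipid and sterol metabolism, 3 fell, 1 rose and 4 were not called, with a median of -0.19. *Srebf1*, the transcription factor of fatty acid synthesis, had 68.9 ± 15.3 CPM under vehicle and 22.7 ± 7.7 CPM under ISOGK, with a log2 difference of -1.605 (standard error 0.24; adjusted p = 0.00592 in edgeR). *Mlxipl*, which encodes the glucose-responsive factor ChREBP, fell by 1.12 on the log2 scale (edgeR adjusted p = 0.000908). The gene of the classical AMPK target acetyl-CoA carboxylase 1, *Acaca*, fell by 0.75 (edgeR adjusted p = 0.00801), from 86.1 ± 12.3 to 51.0 ± 9.2 CPM. Its paralog *Acacb* stood at -0.12 on the log2 scale (edgeR adjusted p = 0.652). *Pnpla2*, the gene of adipose triglyceride lipase, rose by 0.40 (edgeR adjusted p = 0.0466), a call lost in 11 of the 16 alternative settings.

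Of 21 substrates in growth, autophagy, glucose use and transcription, 1 fell, 1 rose and 19 were not called, with a median of 0.09. *Eef2k*, the kinase that halts translation elongation, fell by 0.89 on the log2 scale (edgeR adjusted p = 0.0174), and the call was lost without vehicle-treated mouse 2 (-0.85, adjusted p = 0.0636) or mouse 3 (-0.72, adjusted p = 0.0549), its adjusted p lying between 0.00149 and 0.0636 over all settings. *Mff*, a receptor for mitochondrial fission, rose by 0.39 (edgeR adjusted p = 0.0465), and that call was lost in 11 of the 16 settings.

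At the malonyl-CoA and carnitine shuttle step, which carboxylase products restrain, 4 of 7 tested genes rose and 1, *Acaca*, fell, with a median of 0.58. *Slc25a20*, the carnitine-acylcarnitine carrier, rose by 0.84 (edgeR adjusted p = 0.00185), from 77.5 ± 11.3 to 139 ± 13.9 CPM. *Cpt2* and *Cpt1a*, the inner and the liver-type outer membrane carnitine palmitoyltransferases, rose by 0.58 (edgeR adjusted p = 0.00953) and 0.60 (edgeR adjusted p = 0.0371). *Cpt1b*, the muscle-type form, rose by 3.40 on the log2 scale from 0.459 ± 0.420 to 4.99 ± 1.52 CPM (edgeR adjusted p = 0.00727). It had 0, 6, 17 and 21 counts in vehicle-treated mice 1 to 4 and 60 to 121 counts in ISOGK-treated mice, so it passed the filter on low counts only through the ISOGK group. The highest of the vehicle counts was in mouse 4, the library with muscle transcripts, and the part of muscle RNA was not tested. With at least 10 counts required in every library *Cpt1b* dropped out, and 3 of 6 genes of the step rose and 1 fell, with a median of 0.37. The call for *Cpt1a* was lost in 7 of the 16 settings.

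Of the 4 gluconeogenic genes under CREB and CRTC2, a coactivator that AMPK restrains, 0 were called by edgeR, 1 had an unadjusted p under 0.05, and the median was 0.29. *Pck1*, the key gluconeogenic enzyme, stood at 0.51 on the log2 scale (edgeR adjusted p = 0.0679) and was called by DESeq2 (adjusted p = 0.0234) and by edgeR without ISOGK-treated mouse 4 (adjusted p = 0.0324), its adjusted p lying between 0.0234 and 0.161 over all settings. *Nr4a1*, an orphan nuclear receptor, stood at -1.06 (standard error 0.56, edgeR adjusted p = 0.293), with 1.56 to 10.3 CPM under vehicle, and at -0.45 without vehicle-treated mouse 2, which had the highest level. Among 10 tested genes of a list of adenine nucleotide enzymes, 2 rose and 8 were not called, with a median of 0.06. The enzymes differ in substrate and place in the cell, and AMP itself was not measured. *Nt5c2*, a cytosolic nucleotidase, had 12.7 ± 1.7 CPM under vehicle and 28.2 ± 4.8 CPM under ISOGK and rose by 1.16 on the log2 scale (edgeR adjusted p = 0.00105), and *Aprt*, which salvages adenine to AMP, rose by 0.50 (edgeR adjusted p = 0.0359), a call lost in 7 of the 16 settings.

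Markers of other cell types were read beside these results. Macrophage and Kupffer cell markers summed to 639 to 892 CPM under vehicle and 566 to 712 CPM under ISOGK, and 1 of 6 was lower at an adjusted p under 0.05. Cholangiocyte markers (7.70 to 14.1 CPM under ISOGK, 6.12 to 7.59 CPM under vehicle) and neuron markers (3.20 to 7.26 and 7.67 to 8.83 CPM) did not overlap between the groups, with 1 of 4 tested markers higher in the first list and 1 of 1 lower in the second. The neuron sum rests on 3 genes. Endothelium, stellate cell and fibroblast, lymphocyte and blood markers overlapped between the groups in their sums, with 0 called higher and 0 lower. Only 1 adipocyte marker was in the table, and it was too low to test. Of all 12307 tested genes, 975 were higher and 906 lower without overlap, and 4.11% were called higher and 3.44% lower. A change in these cell types was not tested. The 10 muscle genes were too low to test, and the groups overlapped in their summed level. The part of these cells in the levels of the members was not tested.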

How the data were processed

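Liver mRNA was sequenced from 4 vehicle-treated and 4 ISOGK-treated mice, 1 library per mouse. The authors aligned single-end reads with HISAT2 and made raw counts per gene with StringTie, and deposited these whole-number counts by gene symbol with no normalization. The build is mm10 in the submitters' processing notes, and the annotation release and the use of strand are not given in the sources used here. Columns named for DMSO were taken as vehicle, and 0 columns were left unused.

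Genes were filtered with filterByExpr of edgeR 4.0.16 (minimum count 10, minimum total 15), scaled with TMM factors and tested with the quasi-likelihood test (robust option, no block) in R 4.3.3. The Benjamini-Hochberg adjustment ran over all 12307 tested genes, and intervals are at 95%. Exact permutation tests used log2 CPM with a prior count of 2. Counting error adds to the spread of the genes with few counts. Scripts were tested on simulated counts.

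Alternatives were DESeq2 1.42.0, voom of limma 3.58.1, DESeq2's size factors, library size alone, no filter beyond 1 count, at least 10 counts in every library, the replicate number as a block, no robust option and each mouse left out. Leaving mice out of the paralog ratios was an alternative chosen after seeing the data. Pairs of libraries within a group differed by more than sampling noise (chi-square per gene 18.1 to 99.6).

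Named genes were the 8 members, *Prkag3*, *Acly*, *Apoe*, *Acaca*, *Acacb*, *Srebf1*, every list gene at an adjusted p under 0.05 or, where a list had none, the 2 with the smallest, and the 2 genes nearest in profile to each member. Members and lists were chosen with earlier results of these data known. Coordinates are from GENCODE M21 (GRCm38), and promoter sequences from RefSeq (GRCm38.p6), where all 8 members matched. Some marker and list genes were not analysed here, and some genes under the naming rule are not reported here.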

Additional observations from a re-analysis of the deposited data

Results flagged for a closer look

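In the ISOGK group, *Prkab1* had 15.2 CPM in mouse 4, away from the other 3 mice, which lay between 17.7 and 17.9 CPM. That gap took up 0.913 of the whole range, above Dixon's 95% critical value for 4 samples. Without that mouse the log2 fold change was -0.26 (edgeR adjusted p = 0.206). In the vehicle group, *Cpt2* had 106 CPM (105.9) in mouse 2, away from the other 3 mice at 138 to 140 CPM, a gap that took up 0.955 of the whole range. Among the 64 sets of 4 values checked, 2 passed the critical value, and chance gives about 1 in 20, or 3.2 sets.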

How the results depend on the processing

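The direction of *Prkaa1*, *Prkaa2*, *Prkab1*, *Prkab2*, *Prkag1*, *Prkag2* and *Stk11* was the same in all 16 alternative settings, and that of *Camkk2* turned in 5. *Camkk2* had a log2 fold change of 0.023 in limma-voom and 0.018 with the replicate block, and between -0.13 and 0.14 when single mice were left out. With library size alone as the scale, 1 member was called, *Prkab1* (-0.44), and the median of all genes moved to -0.13. The TMM factors did not overlap between the groups, at 1.017 to 1.089 under vehicle and 0.883 to 1.014 under ISOGK. The choice of scale therefore cannot be separated from the treatment. Leaving out 1 mouse gave 0 members called in every fit. The number of genes at an adjusted p under 0.05 was 929, rose to 1405 in DESeq2 and ranged from 379 to 1235 with 1 mouse left out. It was 379 without vehicle-treated mouse 2, and 511, 496 and 550 without vehicle-treated mice 1, 3 and 4, and 471 without ISOGK-treated mouse 2. Adding an absolute log2 fold change over 1 gave 200 genes, and 123 to 250 with 1 mouse left out. For the pathway lists, 12 genes were called and 7 to 14 with 1 mouse left out, and fewer samples were fitted each time. With the replicate number as a block, 827 genes, 0 members and 12 list genes were called, although the numbers did not pair the mice (correlations of their deviations -0.0144 to 0.0849), and the calls of *Mff* (adjusted p = 0.0526) and *Cpt1a* (0.0776) were lost and those of *Foxo3* (0.0471) and *Pfkfb3* (0.00762), named after their values were seen, were gained. The *Prkaa2* to *Prkaa1* ratio difference, -0.10, was 0.04 without vehicle-treated mouse 3, and the other ratios kept their direction. *Prkab2* rests on 25 to 70 counts per library, so counting error adds to its spread. The causes of these shifts were not tested.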

Other observations

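For each member, the tested genes with the most similar profile were listed, by the mean absolute difference of log2 CPM centred on each gene's mean over the 8 libraries. *Prkab1* was nearest to *Aco1*, the cytosolic aconitase, at 0.0580, and to *Plxnb1* at 0.0583, where the median gene was at 0.247. *Aco1* and *Plxnb1* had log2 fold changes of -0.29 (edgeR adjusted p = 0.0628) and -0.26 (0.0807). *Prkaa2* was nearest to *Elf1* (0.0478) and *Zfhx3* (0.0581), and *Prkaa1* to *Arrdc2* (0.0422) and *Fer* (0.0432). *Prkag1* was nearest to *Cfap410* (0.0529) and *Snu13* (0.0553), and *Prkag2* to *Pam* (0.0366) and *Notum* (0.0508). *Stk11* was nearest to *Fam20c* (0.0435) and *Rpusd4* (0.0447), and *Camkk2* to *Gemin5* (0.0748) and *Vps72* (0.0767). The distance of *Prkab2* to its nearest gene, *Gm13889* (0.147), was the largest of these nearest distances. No other member was among these nearest genes, and nearness over 8 libraries picked from 12307 genes describes these mice and carries no test.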
